A study of Mus musculus with 5 samples.

Results

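H3K23 propionylation (H3K23Pr) was profiled by ChIP-seq in male C57Bl/6J mouse hearts, and the 300 merged regions with the highest mean signal, of 30965 in all, are described here. They were chosen by the mean of the average signal over 4 libraries, with ties broken by region number, so their height is the rule itself and is given as a description without a test. The libraries crossed diet with surgery, with 1 library in each group: BCAA-control diet with sham surgery, BCAA-control diet with TAC, BCAA-free diet with sham surgery, and BCAA-free diet with TAC. BCAA are the branched-chain amino acids leucine, isoleucine and valine, and TAC is transverse aortic constriction, an operation that constricts the aorta and puts the heart under pressure overload. The mice were 12 weeks old, the diets began 4 days before surgery, and they were continued for the 2 weeks after it. Hearts were pooled by 3 for each library, so differences are between single pools and could not be checked against replicates. Sample titles set the groups, since the treatment field of 3 samples says otherwise. The pooled input was not analysed here, as the table gives it no column.

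Propionylation places a propionyl group from propionyl-CoA on a histone lysine, and valine and isoleucine are among the sources of propionyl-CoA in the cell. Histone acyl marks of this kind are found at the start sites of active genes, many of which lie in CpG islands, stretches of DNA rich in unmethylated CpG. In whole heart tissue the signal is an average over cardiomyocytes, endothelial cells, fibroblasts and other cells. Fewer cells of a type and less mark per cell cannot be told apart in such a sample.

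The promoters below belong to members of the set and are shown because they carry the motifs that were counted in the members and in all promoters. They were chosen after their values were seen. Each is the 250 bases before the start of the gene, read 5′ to 3′ on the gene's strand from RefSeq on GRCm38.p6, with matches on either strand in capitals, other than those of the GC box, which is counted but left in lower case. Txnip encodes an arrestin-like inhibitor of glucose uptake and of thioredoxin, and its promoter (chr3:96557707-96557956, plus strand) held 2 matches to the CCAAT box, 1 to a FOXO site and 1 to the glucocorticoid response element.
Txnip: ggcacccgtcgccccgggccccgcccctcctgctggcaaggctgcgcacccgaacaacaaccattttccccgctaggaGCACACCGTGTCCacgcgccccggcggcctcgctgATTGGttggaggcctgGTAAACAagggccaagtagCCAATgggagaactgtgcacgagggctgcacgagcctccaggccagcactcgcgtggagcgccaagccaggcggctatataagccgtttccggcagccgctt
Klf15 encodes a Kruppel-like factor of fasting metabolism, and its promoter (chr6:90462326-90462575, plus strand) held 2 matches to the E-box CACGTG, the letters bound by clock and Myc-type factors. The same promoter held 1 match to the CCAAT box.
Klf15: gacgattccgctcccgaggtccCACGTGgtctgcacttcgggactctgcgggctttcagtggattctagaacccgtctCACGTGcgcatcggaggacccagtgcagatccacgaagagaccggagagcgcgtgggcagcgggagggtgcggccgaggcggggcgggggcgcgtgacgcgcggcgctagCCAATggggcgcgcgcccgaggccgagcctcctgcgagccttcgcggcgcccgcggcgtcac
Per1 encodes a repressor of the circadian clock, and this one of its promoters (chr11:69098699-69098948, plus strand) held 1 E-box and 3 CCAAT matches.
Per1: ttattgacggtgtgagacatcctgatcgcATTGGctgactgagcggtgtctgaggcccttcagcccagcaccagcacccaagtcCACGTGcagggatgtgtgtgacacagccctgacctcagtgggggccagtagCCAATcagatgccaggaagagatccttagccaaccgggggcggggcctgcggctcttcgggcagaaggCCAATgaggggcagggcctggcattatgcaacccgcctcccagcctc
The strongest region of all is a short one, and the promoter of its non-coding gene 4930526I15Rik (chr9:124423537-124423786, plus strand) held 1 E-box and 1 CCAAT match.
4930526I15Rik: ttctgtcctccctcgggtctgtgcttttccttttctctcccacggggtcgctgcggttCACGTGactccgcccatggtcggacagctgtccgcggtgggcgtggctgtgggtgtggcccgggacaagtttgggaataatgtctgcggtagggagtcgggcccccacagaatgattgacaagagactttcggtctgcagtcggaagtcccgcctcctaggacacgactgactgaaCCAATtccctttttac

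The RefSeq table placed 563 promoters of 433 genes in 242 of the 300 regions. Promoters were searched over 300 bases, from 250 before to 50 after the start, on both strands. The E-box CACGTG was found in 72 promoters of the members (12.8%), against 7.15% of all 32851 RefSeq promoters, 10.04% of those in regions with a promoter and a CpG island, and 10.9% of those in the next 300 regions. Within the members the share differed with region length: 26 of 112 promoters (23.2%) in members under 5 kb held an E-box, against 9.24% of the 314 promoters in members of 20 kb or more. The promoters of the short members also had the higher CpG content, with a median observed-to-expected ratio of 0.860 against 0.527. The E-box share over all regions under 5 kb was not taken. Promoters of 1 gene can overlap, and so can those of neighbouring genes on opposite strands, such as Rspry1 and Psme3ip1 at rank 64. The same letters can then be counted more than once, so these shares are descriptions of the letters and not independent sites. The cyclic AMP element TGACGTCA, which shares its core ACGT with the E-box, was found in 3.37% of the members' promoters, 1.79% of all, 3.12% of those in regions with a promoter and a CpG island and 3.91% of those in the next 300. For the other motifs except the TATA box, the members were higher or lower depending on the promoters compared with. The AP-1 letters TGANTCA were found in 6.75% of the members' promoters, which was below all promoters (7.81%) but above those in regions with a promoter and a CpG island (4.34%) and in the next 300 (5.08%). The FOXO letters GTAAACA were found in 2.84%, against 3.65%, 2.33% and 3.32% in the same order. The glucocorticoid response element, a palindrome, was found in 0.355%, against 0.475%, 0.282% and 0.586%. The CCAAT box (CCAAT) was found in 34.1%, against 37.4%, 35.7% and 31.8%. The GC box (GGGCGG) was found in 60.0%, against 35.7%, 65.6% and 59.4%. The TATA box (TATAAA) was found in 5.86%, against 13.6%, 6.28% and 6.25%, so that the members were lower against each.

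The members also held 32 microRNA hairpins in 21 regions. That was 7.0% of the members, against 1.03% of all regions and 2.67% of the next 300 regions. Because the members are long, the density is the closer comparison: 4.42 hairpins per Mb of members, 1.96 in the next 300, and 1.24 over all regions. The mature sequences shown, named after the members' hairpins had been listed, include 3 of the 4 pairs that share a seed (bases 2 to 8, in capitals), the fourth being the 3p arms of let-7b and let-7c-2, and those of the endothelial gene Egfl7 and of Mir22 and the Mir23a cluster.
miR-126a-3p: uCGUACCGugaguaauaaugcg
miR-22-3p: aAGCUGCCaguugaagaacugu
miR-23a-3p: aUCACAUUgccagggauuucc
miR-27a-3p: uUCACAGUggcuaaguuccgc
miR-24-3p: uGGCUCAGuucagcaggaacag
miR-132-3p: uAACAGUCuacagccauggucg
miR-212-3p: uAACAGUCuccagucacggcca
miR-195a-5p: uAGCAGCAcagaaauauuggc
miR-497a-5p: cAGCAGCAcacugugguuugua
let-7b-5p: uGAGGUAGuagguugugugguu
let-7c-5p: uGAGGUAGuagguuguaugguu
In each of these 3 pairs both hairpins lay in the same member, with miR-132 and miR-212 at rank 209. Of the 57 mature microRNAs in the members, 53 seeds were distinct. The file gives the mark at the region and no level of any microRNA.

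The mean signal of the 300 members, in deposited coverage units averaged over a region, ran from 30.2 to 84.4 with a median of 34.0, while all regions had a median of 9.36. The regions at the edge of the set were close together. The last 3 members, Pxdc1, Rbm5 with Rbm6, and an unassigned region on chromosome 16, had mean signals of 30.22, 30.17 and 30.17. The next 3, an unassigned region on chromosome 15, Emc7, and the Ndor1 to Anapc2 region, all had 30.15. The members covered 7.25 Mb and held 6.57% to 7.02% of the approximate tags of each library. Approximate tags, in units of 1e6, summed to between 16.9 and 18.9 per library over all regions, and each member rested on at least 231 of them.

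Values of named members are given in the order control diet sham, control diet TAC, BCAA-free sham and BCAA-free TAC. The strongest region lay at the distal end of chromosome 9 (chr9:124422400-124426999, mm10) over the start site of 4930526I15Rik, with Gm20783 also assigned to it. Its average signal was 70.3, 105.9, 87.2 and 74.2. The next region held Lrrc8a, the obligatory subunit of the volume-regulated anion channel, with 65.8, 69.2, 67.3 and 64.3. Txnip followed with 63.3, 67.4, 64.4 and 68.2 over a region of 41399 bp (chr3:96545000-96586399) that also took in Gm15441 and Polr3gl. For Lrrc8a and Txnip the 4 libraries lay within 1.08-fold of each other, whereas the strongest region had its control diet TAC library 1.51-fold above its control diet sham library.

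Fkbp5, a co-chaperone that restrains the glucocorticoid receptor and is induced by it, was assigned to the region of rank 4 (chr17:28493000-28529799), with 61.3, 67.1, 65.9 and 57.5. By the RefSeq coordinates this region did not hold the start of Fkbp5: it began 6.85 kb upstream of it and reached to 43.6 kb upstream. The start itself lay in another region of rank 5717, with a mean signal of 15.8. Hif3a, a hypoxia-inducible factor subunit, was at rank 5 with 55.2, 55.3, 58.6 and 53.5, and its 2 control diet libraries were nearly equal. Kdm6b, a demethylase of H3K27, was one of 4 genes assigned to the region of rank 8 (chr11:69406400-69424999), with 45.8, 67.4, 54.0 and 49.9. Gpihbp1, the endothelial protein that carries lipoprotein lipase into capillaries, had 48.4, 69.9, 42.5 and 54.0 at rank 9 (chr15:75587200-75602199). Both Kdm6b and Gpihbp1 were highest in the control diet TAC library, and Gpihbp1 was lowest in the BCAA-free sham library.

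**Figure D1:**
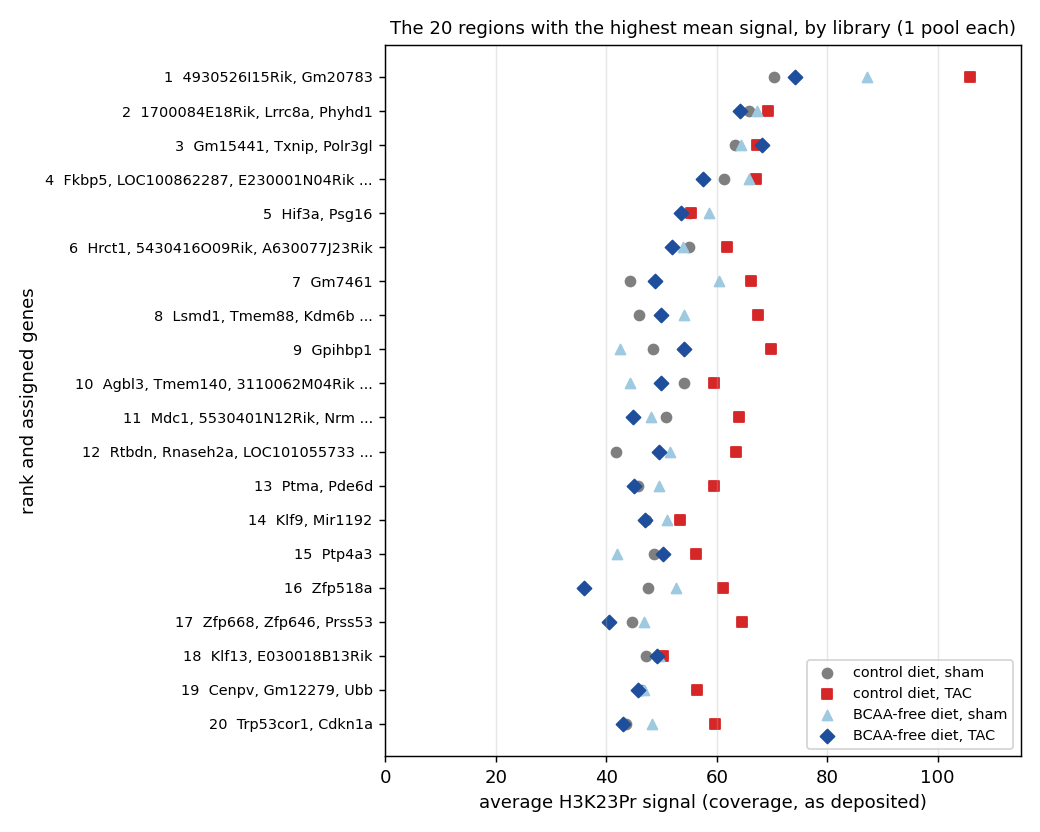
Average H3K23Pr signal (coverage, as deposited) of the 20 highest regions, with 1 point for each library and no replicates. The control diet TAC library lies to the right in most rows, for example at 105.9 in the first, while Lrrc8a, Txnip and Klf13 have their 4 points close together.

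The other regions among the first 20 were assigned to Hrct1 (rank 6, mean 55.6), Gm7461 (rank 7, 54.9), Tmem140 with Wdr91 and 2 others (rank 10, 52.01), and Mdc1 with Nrm, Ppp1r18 and Dhx16 (rank 11, 51.96). Junb, an AP-1 subunit, shared its region with Prdx2, Rnaseh2a and Hook2 at rank 12, with a mean of 51.6. Ptma (prothymosin alpha) was at rank 13 with 49.9, Klf9 at rank 14 with 49.6, and Ptp4a3, a phosphatase, at rank 15 with 49.3. Zfp518a, a zinc finger gene, had 49.3 at rank 16 over only 1999 bp. Zfp668 with Zfp646 (rank 17, 49.1), Klf13 (rank 18, 49.05), Ubb with Cenpv (rank 19, 48.8) and Cdkn1a (rank 20, 48.6) completed the 20. Ubb encodes polyubiquitin and Cdkn1a the cell cycle inhibitor p21.

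Members were long and mostly promoters. Their median length was 12199 bp, against 7599 bp in the next 300 and 5599 bp over all regions. The range was 1799 to 225399 bp: 84 members were under 5 kb, 104 were 5 to 20 kb, 76 were 20 to 50 kb and 36 were 50 kb or more. At least 30 kb was reached by 75 members (25%), against 16.0% of the next 300 and 4.82% of all regions. The longest were Tns1 with Rufy4 (225399 bp), the Neurl1b to Ergic1 region that holds Dusp1 (207599 bp), Zbtb16 (197599 bp), the head-to-head collagen IV genes Col4a1 and Col4a2 (179799 bp), and Notch1 with Egfl7 (153199 bp). The shortest were an unassigned CpG island on chromosome 12 (1799 bp) and Rnls, the Gpt to Recql4 region, Tusc1 and Zfp518a (1999 bp each). Length and mean signal were only loosely related within the members, with a Spearman correlation of 0.16 across the 300 regions, which share the same 4 libraries.

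A promoter and a CpG island were both present in 263 members (87.7%), against 31.4% of all regions. The next 300 regions by rank had almost the same share, 88.0%. A further 17 members held a promoter without a CpG island, among them Gpihbp1 and Hrct1, 9 held a CpG island without a promoter, and 11 held neither. The exact 95% interval of the 87.7% share, 83.4 to 91.2, served as the limit for judging alternative settings. The 300 are a fixed set and not a random sample, so it is no test against other regions. At least 2 promoters were held by 129 members (43.0%), against 40.3% in the next 300 and 11.2% of all regions, and the maximum was 16. No gene was assigned to 11 members. The strongest of these lay at chr9:122012000-122041199, at rank 25, with 43.6, 49.0, 42.7 and 47.9 in the 4 libraries. The table assigned 696 genes to the members. Of the 530 protein-coding genes that could be matched to RefSeq, 145 lay wholly inside a member and 118 did not overlap the member they were assigned to.

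**Figure D2:**
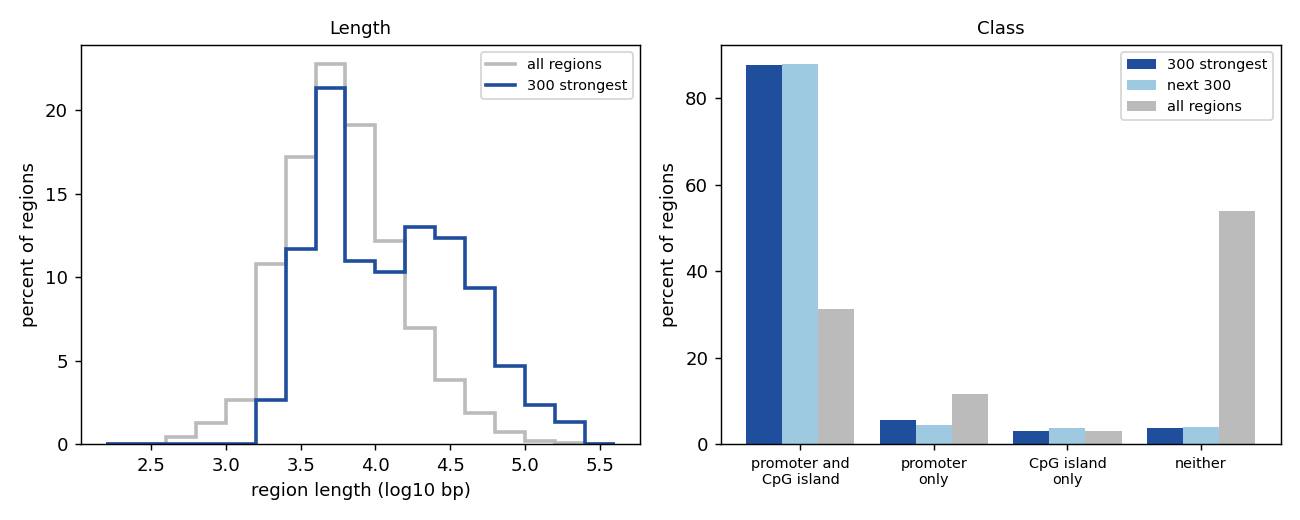
Left, distribution of region length (log10 bp) as a percentage of the 300 strongest and of all 30965 regions. Right, the percentage in each class, where 87.7% of the 300 strongest and 88.0% of the next 300 held a promoter and a CpG island, against 31.4% of all.

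The authors' peak calls covered all 4 libraries for 292 members (97.3%), against 58.3% of all regions. Of the other 8, Gpihbp1, the Gpt to Recql4 region and Irf2bpl were called in 2 libraries. Pxn with Rplp0, the Fzr1 to Nfic region, Ensa with Mcl1, Dnajb12, and Iqgap3 with Mef2d were called in 3. Their average signals in every library were nevertheless 27.9 or more. The members were spread over all autosomes and the X chromosome. Chromosome 11 held 34 and chromosome 15 held 24, which was 1.90% of that chromosome's regions, and 4 lay on the X chromosome. Within 100 kb of another member lay 36 members, in 17 groups of at most 3, such as Ncl with Ptma on chromosome 1 and both Kdm6b regions on chromosome 11.

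Of 18161 genes with a region, 3.83% were assigned to a member, and the gene lists described next are read against that share. The lists were chosen with earlier results of these data known, so their shares are a description and not a test. The 5 lists with the highest shares held genes that respond to hormones, fasting, time of day or growth signals. In these 5 the median length of a gene's strongest region was 20299 to 31799 bp, against 7399 bp over all genes. The part of length in the shares was not tested. Glucocorticoid-responsive genes had 10 of 22 genes in the set, circadian clock genes 7 of 18, Kruppel-like factors 5 of 13, immediate early and AP-1 genes 8 of 24, and FoxO, fasting and insulin-responsive genes 5 of 22. Hypoxia-responsive genes followed with 3 of 16 (Hif3a, Pfkfb4, Epas1), and MAPK phosphatases and feedback inhibitors had 3 of 18. Pfkfb4 was counted through a 4399 bp region in Shisa5, with its midpoint 48097 bp downstream of the Pfkfb4 start. The first 5 lists and the MAPK list overlap in part, and together 33 of their 110 genes were in the set, in 33 regions. Those regions had a median length of 25999 bp, and none was under 5 kb, against a median of 8799 bp in the other 267 members. With each of the 696 genes counted once the median length of a member was 21499 bp.

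The glucocorticoid-responsive members were Fkbp5, Hif3a, Klf9, Cdkn1a, Klf15, Angptl4, Per1, Cebpd, Zbtb16 and Dusp1. Klf9, a transcription factor induced by the hormone, had 47.2, 53.4, 51.0 and 46.9. Klf15 had 42.1, 43.3, 41.3 and 39.6. Angptl4, a secreted inhibitor of lipoprotein lipase, had 37.6, 46.3, 37.5 and 39.0, and Cebpd, a C/EBP factor, had 34.3, 41.9, 39.9 and 32.2. Zbtb16 had 34.6, 35.1, 38.2 and 37.5. Klf15 and Zbtb16 thus differed little between libraries, while Angptl4 was highest after TAC on the control diet.

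The clock members were Dbp, Cry2, Per1, Tef, Nr1d1, Bhlhe40 and Per2. Dbp, an output factor of the clock, had 45.5, 53.8, 46.8 and 47.6. Per1 had 34.2, 44.3, 42.8 and 37.7, and Per2, its paralogue, had 28.8, 33.3, 36.5 and 33.4. Nr1d1, the nuclear receptor REV-ERB alpha that represses Bmal1, had 38.4, 42.5, 38.7 and 36.4 over a region of 81999 bp shared with Thra. Cry2, a clock repressor, had 36.8, 42.4, 40.9 and 41.1. Tef, a relative of Dbp, was assigned to the regions of rank 54 and rank 244. The region of rank 54 had 35.4, 40.1, 39.7 and 41.8. Its midpoint lay 41526 bp downstream of the Tef start, so this region of 37199 bp did not hold that start. Both Per genes were lowest in the control diet sham library, but their highest library differed. The hour at which hearts were taken is not given in the sources used here.

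The immediate early members were Junb, Zfp36, Jun, Ier2, Myc, Maff, Btg2 and Zfp36l2. Junb had 41.8, 63.4, 51.5 and 49.6. Jun, its relative in AP-1, had 41.4, 53.9, 46.3 and 37.1. Zfp36, which destabilises messenger RNAs with AU-rich elements, had 44.0, 56.8, 49.2 and 43.9. For these genes the control diet TAC library was the highest. The Kruppel-like members were Klf9, Klf13, Klf15, Klf3 and Klf4. Klf13 had 47.2, 50.2, 49.6 and 49.2 over 72199 bp, whereas Klf4 had 30.3, 41.2, 36.4 and 28.8 over 13199 bp. Beside Txnip and Klf15, the fasting list gave Cited2, Arrdc3 and Ppara. Ppara, the nuclear receptor of fatty acid oxidation, had 32.6, 34.6, 33.0 and 34.1 in a region of 110199 bp that also held the let-7b and let-7c-2 hairpins.

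Among the other lists, TGF-beta and BMP pathway genes had 3 of 21 (Ski, Id3, Id2), endothelial signalling and vascular genes 3 of 20 (Hes1, Notch1, Eng), and chromatin enzymes 3 of 34 (Kdm6b, Ncor1, Ep300). Dusp6 and Trib1 joined Dusp1 in the MAPK list. Fatty acid oxidation and lipid genes had 2 of 23 (Plin5, Ppara), ribosomal protein genes 2 of 28 (Rpl18, Rplp0), heat shock and chaperone genes 1 of 17 (Hsp90ab1), and cardiac transcription factor genes 1 of 16 (Mef2d). Rplp0 was counted through a 45999 bp region in Pxn. The midpoint of that region lay at -32268 bp from the Rplp0 start, so the region did not hold that start. Cardiac stress genes had 0 of 12, sarcomere and Z-disc genes 0 of 20, BCAA catabolism genes 0 of 26 and core histone genes 0 of 13. Their best ranks were 618, 1588, 652 and 421.

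The labelled tissue was checked with cell type markers. Cardiomyocyte markers had 0 of 12 genes in the set, with a best rank of 1745 and a median signal of 13.3 at their strongest regions. Fibroblast markers had 0 of 10 and smooth muscle and pericyte markers 0 of 8, with best ranks of 3049 and 3078. Endothelial markers had 2 of 12 (Gpihbp1 and Egfl7), and macrophage markers had 1 of 8 (Cd68). Marker signal was present in every library but its sums differed between them. Summed over the list, the fibroblast markers stood at 131, 131.7, 172.3 and 108.6 in the 4 libraries, the cardiomyocyte markers at 132.2, 155.1, 140.4 and 203.4, and the endothelial markers at 280.5, 353.6, 225.7 and 292.7. Smooth muscle and pericyte markers summed to 100.6, 113.9, 96.2 and 90.4, and macrophage markers to 101.6, 117.4, 100.1 and 82.3. On the BCAA-free diet all 10 fibroblast regions were lower and all 12 cardiomyocyte regions higher in the TAC library than in the sham library. Of all regions 46.6% were higher there. On the control diet 4 of 10 fibroblast and 11 of 12 cardiomyocyte regions were higher after TAC, against 68.7%. On the BCAA-free against the control diet, 10 of 10 and 9 of 12 were higher in sham hearts, against 49.1%. After TAC 2 of 10 and 11 of 12 were higher on the BCAA-free diet, against 29.7%. The part of these differences in the values of the members was not tested.

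**Figure D3:**
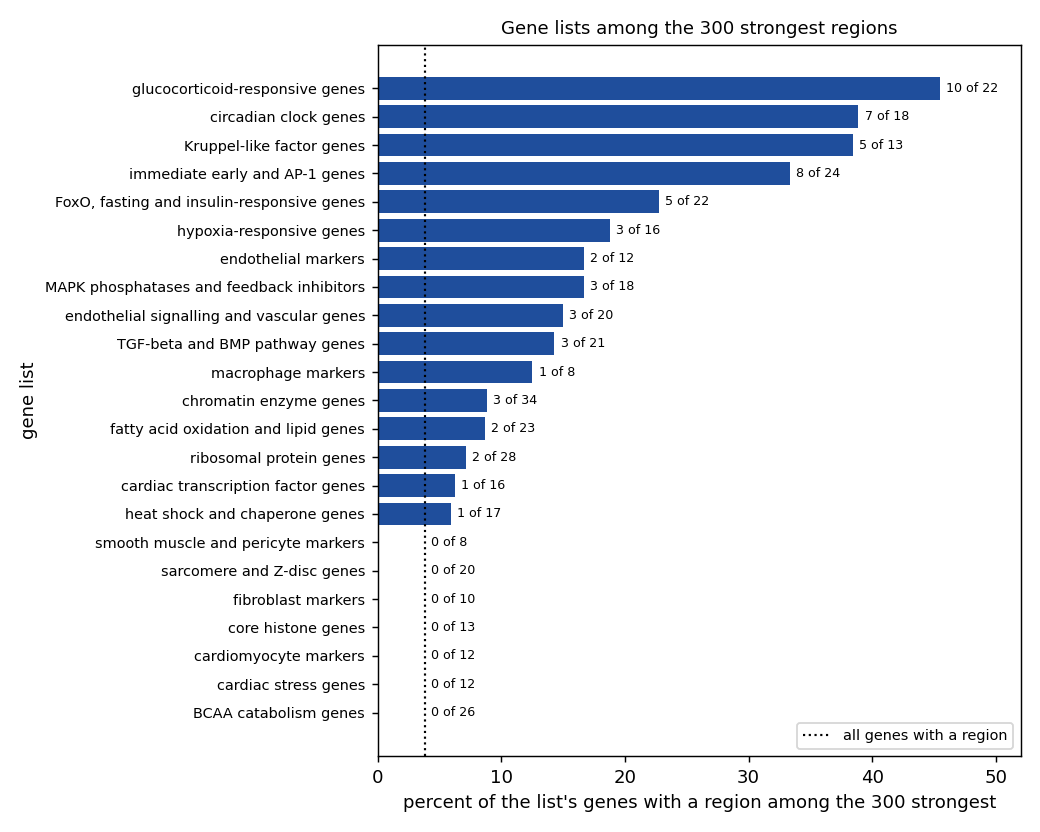
Percentage of each list's genes assigned to a region among the 300 strongest, with the number of genes beside each bar, against a dotted line at 3.83% for all genes with a region. The bars run from 10 of 22 glucocorticoid-responsive genes down to 7 lists with no gene.

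Over the 4 libraries the members were moderately stable. The spread, the highest library divided by the lowest, had a median of 1.34-fold, against 1.37-fold in the next 300, 1.35-fold in all regions with a promoter and a CpG island, and 1.46-fold over all regions. All 4 libraries lay within 25% of the lowest at 71 members (23.7%, against 16.8% of all regions), and within 1.5-fold at 247 (82.3%, against 55.6%). Of all regions with a promoter and a CpG island, the class of most members, 25.02% met the first limit and 78.6% the second. The most even member was the 82399 bp region of Bcl2l1, an inhibitor of apoptosis, and Cox4i2, with 42.4, 42.5, 43.3 and 43.0 and a spread of 1.02-fold. Ppara with the let-7 hairpins (1.06-fold), Klf13 (1.06-fold), Lrrc8a (1.08-fold) and Txnip (1.08-fold) followed. The least even was Sema7a with Ubl7, at 2.00-fold, with 35.4, 49.0, 24.5 and 41.3. It was followed by Hs3st3a1 (1.81-fold), an unassigned CpG island at chr13:54300800-54304999 (1.77-fold), Tmem17 (1.76-fold) and Slc7a1 (1.76-fold), which are all under 5 kb.

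The spread was smaller in longer regions. Its median was 1.47-fold in members under 5 kb, 1.35-fold in those of 5 to 20 kb, 1.28-fold in those of 20 to 50 kb and 1.21-fold in those of 50 kb or more. The 25% limit was met by 3 of 84, 15 of 104, 28 of 76 and 25 of 36 members in these classes. These are 3.57%, 14.4%, 36.8% and 69.4%, against 7.48%, 21.2%, 37.1% and 49.8% of all regions of the same lengths, so under 20 kb the share was lower in the members. The Spearman correlation of length with spread was -0.57 over the 300 members, -0.39 over the next 300 and -0.45 over all regions, which share the libraries and their depth. This order rested on the control diet TAC library. Without it the medians were 1.14-fold under 5 kb, 1.13-fold at 5 to 20 kb and 1.13-fold at 20 kb or more, 258 members (86.0%) lay within 25%, and the correlation was -0.04. Leaving out any one of the other libraries gave correlations from -0.67 to -0.49 and between 92 and 94 members within 25%. Without the control diet TAC library the median spread over all regions was 1.31-fold, and 41.5% lay within 25%, against the 1.13-fold and 86.0% of the members.

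**Figure D4:**
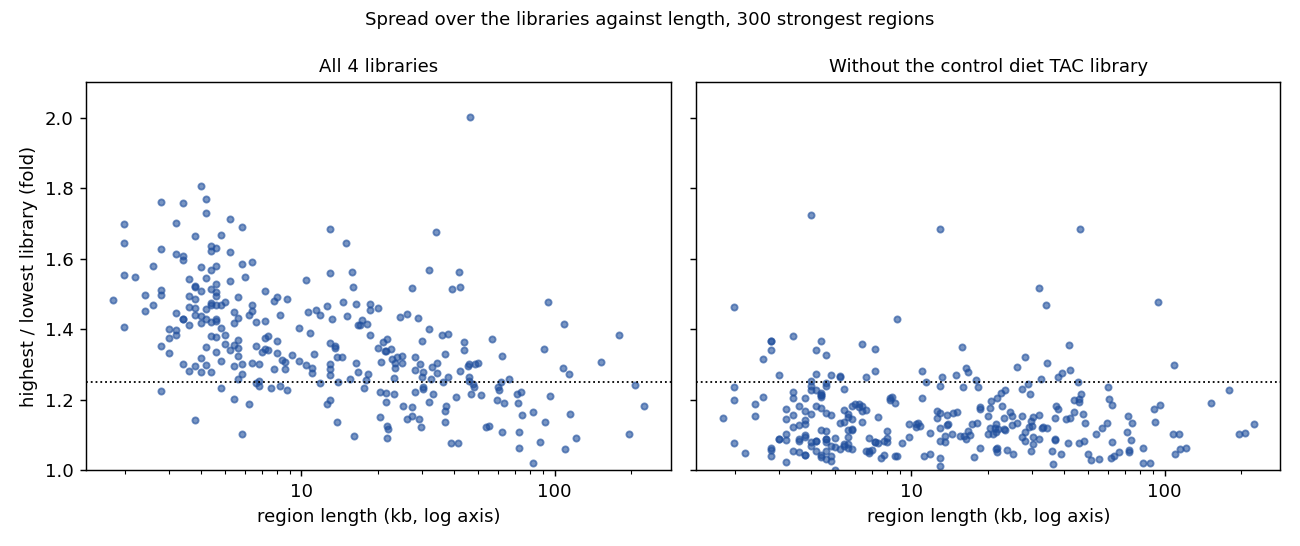
Spread over the libraries (highest divided by lowest, fold) against region length (kb, log axis), with 1 point for each of the 300 regions and a dotted line at 25% above the lowest. With all 4 libraries the short regions lie higher (median 1.47-fold under 5 kb), and without the control diet TAC library the medians are 1.14-fold under 5 kb and 1.13-fold at 20 kb or more.

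The control diet TAC library was the highest of the 4 at 279 members (93.0%, against 48.9% of all regions) and the lowest at none. The BCAA-free sham library was the highest at 12 (20.3% of all regions), the BCAA-free TAC library at 9 (19.8%) and the control diet sham library at 0 (11.0%). The control diet TAC library was the highest at 91.3% of the next 300 as well. Among all regions with a promoter and a CpG island it was the highest at 81.4%. In each library's own ranking, 255 of the 300 members were among the first 300 of the control diet sham library, 246 of the control diet TAC library, 238 of the BCAA-free sham library and 236 of the BCAA-free TAC library. All 4 rankings held 159 of the members, and 494 regions were among the first 300 of at least 1 library. Ranking by peak height instead gave a largely different set, with 93 to 102 members in a library's first 300.

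After TAC on the control diet, nearly all members had more signal than after sham surgery. With 1 added to each average signal, the log2 ratio had a median of 0.34 over the members (order-statistic 95% interval 0.32 to 0.36), and it was above 0 at 298 of 300, against 68.7% of all regions. This interval, like those of the medians below, is taken over regions that share the same libraries. It does not cover the difference between pools. Over all regions the median log2 ratio was 0.16, and relative to that shift the members' median was 0.19. At least 1.5-fold higher were 22 members (7.33%), against 5.75% of all regions, and 0 were at least 1.5-fold lower, against 2.19%. Of the 22, 15 (68.2%) were under 5 kb, against 83.5% of all regions past that fold. The corresponding median was 0.35 in the next 300 and 0.27 in all regions with a promoter and a CpG island. In that class 92.8% of regions were above 0 and 0.03% were at least 1.5-fold lower. Of the next 300, 99.0% were above 0. Centred on the median of all regions, 2 of the 22 stayed at 1.5-fold or more.

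The unassigned CpG island at chr13:54300800-54304999 had the highest ratio, with 26.6 in the sham and 47.1 in the TAC library (1.77-fold, 95% counting interval 1.58 to 1.98). The counting intervals cover counting error only, not the difference between pools. Lrrc59, a ribosome receptor of the endoplasmic reticulum, had 24.9 and 42.4 (1.70-fold), and A930002H24Rik had 28.4 and 47.3 (1.67-fold). Slc7a1, the cationic amino acid transporter CAT1, had 28.6 and 47.5 (1.66-fold, 1.47 to 1.88), and Eprs with Bpnt1, which holds the glutamyl-prolyl tRNA synthetase, had 23.5 and 38.4 (1.64-fold). At the other end, an unassigned region of 59799 bp at chr12:8408400-8468199 had 32.2 and 28.8 (log2 ratio -0.16). The Drap1 region had 34.4 and 31.4, and Bcl2l1, Hif3a and Zbtb16 had log2 ratios of 0.00, 0.00 and 0.02.

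On the BCAA-free diet the members lay close to equal between TAC and sham. The median log2 ratio was -0.05 (-0.08 to -0.03), against -0.03 over all regions, and 116 of 300 were above 0, against 46.6% of all. At least 1.5-fold higher were 2 members, against 8.06% of all regions, and 1 was at least 1.5-fold lower, against 9.23%. In all regions with a promoter and a CpG island these shares were 0.92% and 1.99%. In the next 300 they were 0% and 0.33%. The highest were Sema7a with Ubl7, which had 24.5 in the sham and 41.3 in the TAC library (1.69-fold, 1.63 to 1.75), and Rassf4 with Zfp422, which had 33.1 and 50.2 (1.52-fold). Sema7a encodes a membrane-anchored semaphorin. Gpr56, an adhesion receptor, followed with 26.7 and 39.2 (1.47-fold), then Timp4 with Syn2 (1.32-fold) and Itpkb (1.30-fold). The lowest were Hs3st3a1, a heparan sulfate sulfotransferase, with 37.8 and 22.0 (1.72-fold lower), Zfp518a with 52.7 and 36.0 (1.46-fold lower), Gm5218, Slc7a1, and an unassigned region at chr15:84637200-84644399.

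Between the sham libraries the diets differed little at the members. The median log2 ratio of BCAA-free to control diet was 0.04 (0.02 to 0.06), against -0.01 over all regions. None was 1.5-fold higher or lower, against 2.76% and 2.62% of all regions. In all regions with a promoter and a CpG island these shares were 0.28% and 0.34%. In the next 300 they were 0.33% and 0%. With a limit of 25% in place of 1.5-fold, 12 members were higher and 6 lower. The highest ratios were those of Gm7461 (44.2 and 60.4, 1.37-fold), Eprs with Bpnt1 (1.36-fold), Rbks with Bre (1.36-fold), Cpeb1 with Ap3b2 (1.33-fold) and Slc4a1ap (1.31-fold). The lowest were Sema7a (35.4 and 24.5, 1.45-fold lower), Tmem211, the Pik3ip1 and Limk2 region, Rassf4, and Tpst2 with Crybb1. At Sema7a and Rassf4 the BCAA-free sham library was the lowest of the 4.

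Between the TAC libraries the members had less signal on the BCAA-free diet. The median log2 ratio was -0.34 (-0.36 to -0.31), against -0.20 over all regions, which left -0.14 relative to that shift. At least 1.5-fold lower were 25 members (8.33%), against 9.42% of all regions, and 0 were higher, against 3.82%. Of the 25, 20 (80.0%) were under 5 kb, against 80.7% of all regions past that fold. A ratio above 0 was found at 12 members, against 29.7% of all regions. In the next 300 the median log2 ratio was -0.36, with 8.33% at least 1.5-fold lower, 0% higher and 3.67% above 0. In all regions with a promoter and a CpG island the median was -0.31, and these shares were 9.14%, 0.11% and 8.25%. Hs3st3a1 had 39.7 on the control and 22.0 on the BCAA-free diet (1.81-fold lower, 95% counting interval 1.59 to 2.05). Slc7a1 (47.5 and 27.03), Tmem17 (45.4 and 25.8), Fut8, the core fucosyltransferase (44.5 and 25.8), and Sgpl1, the sphingosine-1-phosphate lyase (40.7 and 23.8), followed. The highest were Timp4 with Syn2 (32.8 and 35.5, 1.08-fold), Zbtb16 (1.07-fold), Slc4a1ap (1.06-fold) and the Tef region of rank 54 (1.04-fold). This comparison and that of TAC with sham on the control diet share the control diet TAC library, so their opposite medians are not separate observations. Centred on the median of all regions, 3 of the 25 stayed at 1.5-fold or more. By peak signal 72 members were at least 1.5-fold lower.

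**Figure D5:**
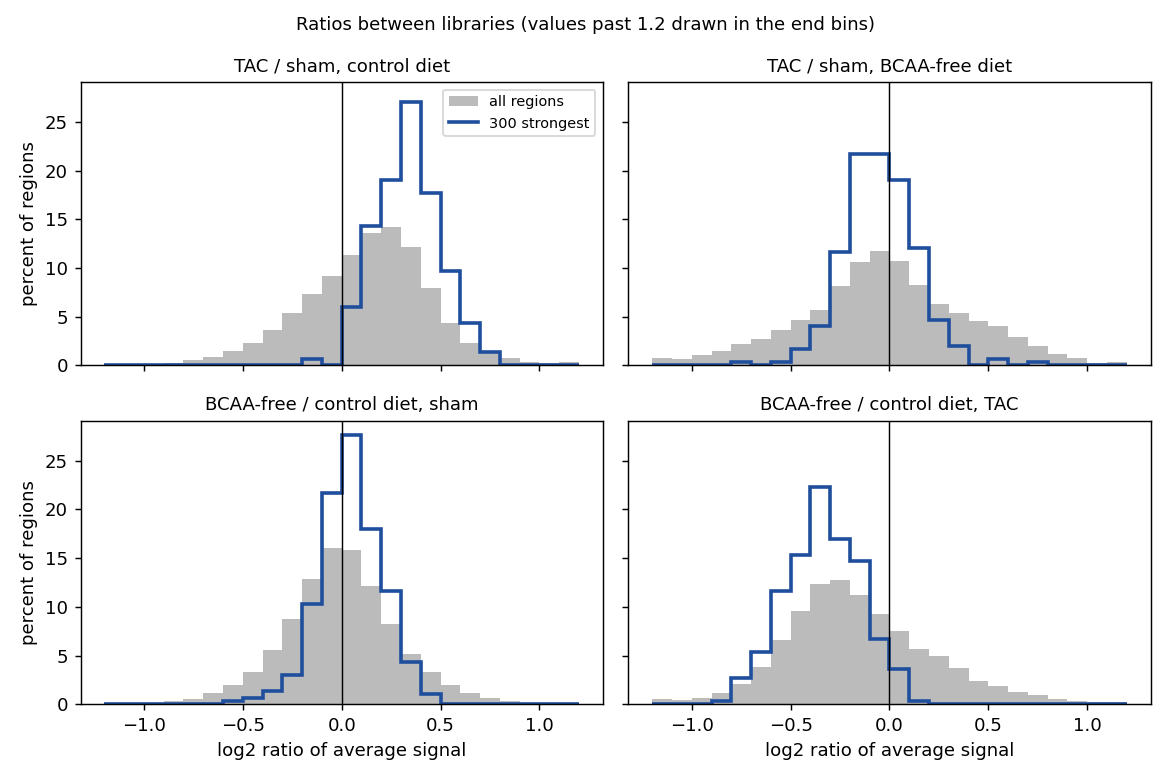
Distribution of the log2 ratio of average signal in the 4 comparisons, as a percentage of the 300 strongest (line) and of all regions (grey). The medians of the 300 are 0.34, -0.05, 0.04 and -0.34 in reading order, and those of all regions are 0.16, -0.03, -0.01 and -0.20.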

How the data were processed

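The deposited table lists 30965 merged regions on mm10 with an average and a peak signal (coverage) per library, and, per the file headers, maximum tags, call flags, promoter and CpG-island counts and assigned genes. The submitters' processing notes list BWA, MACS2 and mm10 but give neither version nor role, and the labels credit Active Motif with the chromatin work. No source used here states how signal was scaled, so the authors' values were taken as deposited. The authors also deposited log2 ratios, which were not used.

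Regions were ranked by their mean average signal. Approximate tags were signal times length divided by 224, which gives the deposited maximum tags, and exact Clopper-Pearson intervals from them cover counting error only. Intervals of medians are order-statistic intervals over regions, and they do not cover the difference between pools. Log2 ratios had a pseudocount of 1, and plain folds none. With 1 library per group no test was made. A gene was represented by its strongest region. Promoters and microRNAs came from RefSeq on GRCm38.p6.

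Members, the 24 gene lists (439 symbols) and the naming rule were chosen with earlier results of these data known. The rule names the 20 strongest regions, 5 given marker genes, the 5 highest and lowest ratios of each comparison, list genes, the 5 longest and shortest, the 3 regions on either side of the last rank, and the 5 most and least even. Some members it names, and 1 of the lists, are not reported here. Ranking and ratios were checked on simulated data, with planted regions far above the others and planted ratios of 2-fold. That check covers the code and cannot show how sure close ranks or smaller ratios are. Tools were Python 3.11.15, pandas 2.3.3, NumPy 2.4.6, SciPy 1.17.1 and matplotlib 3.10.9.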

Additional observations from a re-analysis of the deposited data

Results flagged for a closer look

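At 8 members the TAC library was more than 25% above sham on the control diet and sham more than 25% above TAC on the BCAA-free diet, with both counting intervals excluding 1. That is 2.67% of members, against 2.23% of all regions. The opposite pattern occurred at 0 members, against 1.14% of all regions. Each value rests on single pools, so the difference between diets was not tested. As the BCAA-free minus the control log2 ratio, Slc7a1 differed by -1.16, Hs3st3a1 with F930015N05Rik by -1.11, and Zfp518a by -0.895. Mon1b with Syce1l differed by -0.802, Vps13b by -0.783, Tmem17 by -0.771, Klf4 by -0.758 and Atrnl1 by -0.654. Slc7a1 had 28.6 and 47.5 on the control diet and 37.3 and 27.03 on the BCAA-free diet. Klf4, at 13199 bp, was the longest of the 8.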

How the results depend on the processing

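Of 78 alternatives, 54 left the value close to that reported, 22 moved it and 2 turned the majority direction. Ranking by peak signal kept 99 of the 300 regions, with a median length of 22299 bp and 94.3% holding a promoter and a CpG island. The strongest 100 had a median length of 18099 bp. Leaving out 1 library at a time kept 280 to 284 regions, with median lengths of 10099 to 13099 bp and 86.3% to 89.0% in that class. The share of members at least 1.5-fold different on TAC against sham, control diet, was 7.33%; it was 2.33% with a pseudocount of 5, 0.667% when centred, 54.7% at a 25% limit and 0% at 2-fold. For TAC on the BCAA-free diet it was 1.00%, with 2 higher and 1 lower. The strongest 100 gave 2.00% and the strongest 500 gave 0.600%, and 2-fold gave 0%. The direction turned with peak signal (1.67%, 0 higher and 5 lower) and with a 25% limit (8%, 8 higher and 16 lower). For diet in sham hearts the share went from 0% to 0.333% with peak signal and 6.00% at a 25% limit. For diet after TAC it went from 8.33% to 1.00% when centred, 24.0% with peak signal, 5.00% in the strongest 100, 53.0% at a 25% limit and 0% at 2-fold. Members within 25% went from 23.7% to 52% when centred, 10.7% with peak signal, 82.3% at 1.5-fold and 86.0% without the control diet TAC library, an alternative chosen after seeing the data. The length order of the spread was weaker but in the same direction by peak signal, with medians of 1.49-fold under 5 kb and 1.35-fold at 20 kb or more. Apart from changed thresholds, the causes were not tested. No paired analysis was possible because each group has 1 library.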
